A study of Sus scrofa with 15 samples.

Results

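A set of 9 markers of Kupffer cells and other macrophages were followed in the liver of piglets given lipopolysaccharide (LPS), a component of the outer wall of Gram-negative bacteria. The markers asked for were MRC1, TIMD4, VSIG4, CD163, MARCO, CSF1R, CD68, CD5L and CD86. A marker was taken where its symbol in a table of pig Ensembl gene names led to a row of the deposited count table. This gave 8 of the 9 markers, among 31908 genes in all. CD5L is not paired with an identifier there and was not analysed here.

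The animals were male Duroc x Large White x Landrace piglets in the growing stage. Piglets of the control (CON) group received sterile saline by intraperitoneal injection, and piglets of the LPS group received 80 μg/kg of LPS by the same route, 4 h before the liver was taken. The libraries were the input fractions of an m6A immunoprecipitation experiment, that is, fragmented polyadenylated liver RNA set aside before the antibody step, with 3 libraries per group. The immunoprecipitated libraries were not analysed here. The labels number the libraries as separate samples of each group and do not say whether each came from 1 piglet, so the p-values measure the spread between these samples.

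Kupffer cells are the macrophages that live in the sinusoids of the liver, where they face the portal blood. They take up bacteria, endotoxin, dying cells and old red blood cells through scavenger, lectin, complement and phosphatidylserine receptors, and they are among the cells that sense LPS through TLR4 and CD14. Resident cells are maintained by signals through the CSF1 receptor, while blood monocytes can enter the inflamed liver and become macrophages that carry part of the same markers. The study asked how the liver responds to LPS. By RT-qPCR it used iNOS, CD86 and IL-12 as markers of inflammatory macrophages and MRC1 (CD206) as a marker of the opposite state.

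Total counts lay between 4348478 and 19967417 per library, with LPS replicate 3 the deepest and LPS replicate 1 the shallowest. LPS replicate 2 stood apart in its effect on the calls: edgeR called 7 of 12774 tested genes with all libraries and 982 without it. TMM factors lay between 0.98 and 1.11 except in LPS replicate 3 (0.735). All 8 markers were found in all 6 libraries and passed the filter on low counts, the lowest count being 16 reads of CD86 in LPS replicate 1. The liver was recognisable by ALB, the plasma albumin of hepatocytes, at 26572 ± 9841 CPM (counts scaled to 1000000 per library, mean ± SD, n = 3) in the CON group and 15678 ± 3676 CPM in the LPS group.

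In the LPS group, MRC1, TIMD4 and VSIG4 lay at 0.422, 0.474 and 0.525 of their CON means, and each LPS library was below each CON library. The other 5 markers had LPS means below their CON means, with overlapping libraries in each case. No marker passed the test: 0 of 8 were called by edgeR's quasi-likelihood test with a fold above 1.5 and a p below 0.05 after Benjamini-Hochberg adjustment over all tested genes. DESeq2 and limma-voom called 0 of 8 as well. Over all genes, DESeq2 called 418 of the 14372 to which it gave an adjusted p, and limma-voom called 6. Among all tested genes edgeR called 0.0548% higher and 0% lower. At an unadjusted p below 0.05, edgeR gave 3 of 8 markers lower and 0 of 8 higher, where 6.33% of all tested genes were lower and 6.18% were higher. All LPS libraries were below all CON libraries in 3 of 8 markers and in 9.80% of all tested genes, and above them in 0 of 8 markers and in 6.52% of all tested genes. The median log2 fold change was −0.72 over the 8 markers and 0.01 over all tested genes. In liver RNA alone, fewer macrophages and less marker RNA per macrophage cannot be told apart. By immunostaining, the study reported significantly more macrophage infiltration in livers of the LPS group. It does not say whether the stained livers were those sequenced. Macrophage number, and the part of RNA from other liver cells in these values, were not tested here.

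**Figure D1:**
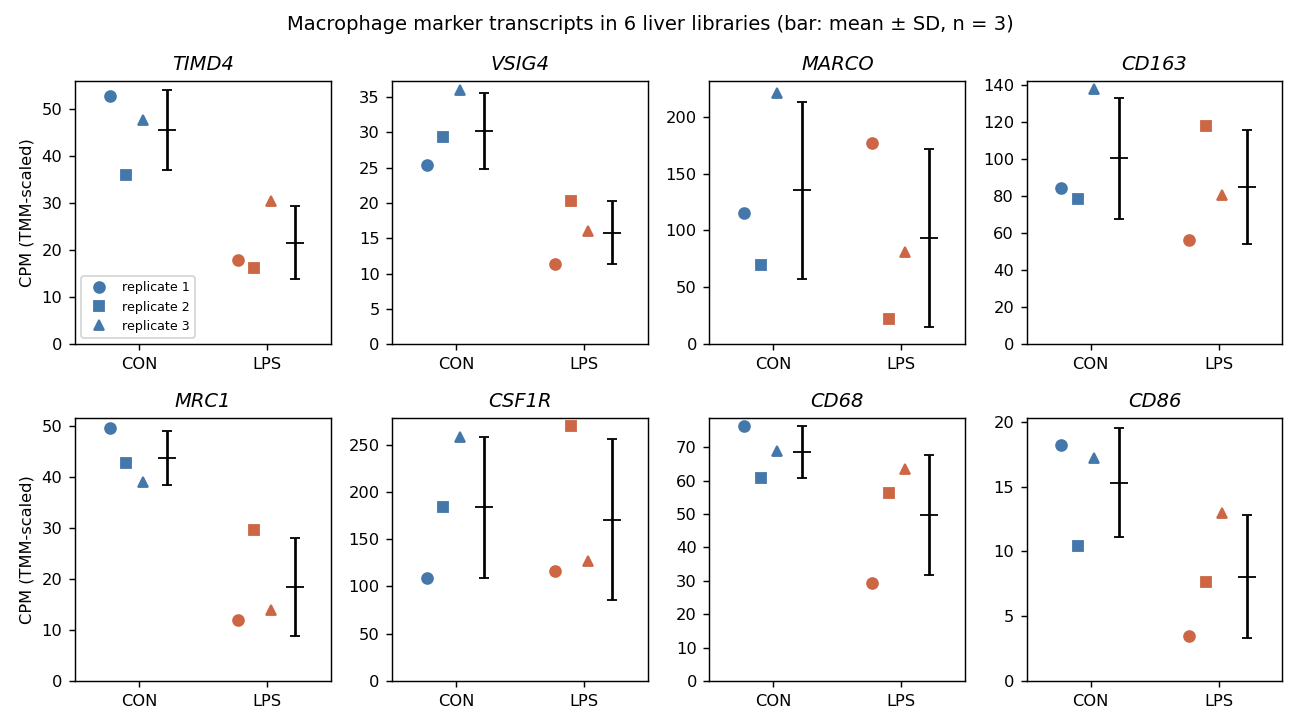
Level of each of the 8 macrophage markers in TMM-scaled CPM (y axis, linear scale). Points are the 3 CON and 3 LPS libraries, and bars give the group mean ± SD. The LPS points lie wholly below the CON points in MRC1, TIMD4 and VSIG4, and the groups overlap in the other 5 panels.

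The receptors tied to resident Kupffer cells are given first, with coordinates as in the deposited table, whose build is not stated and whose marker spans overlap the same genes of Sscrofa11.1. TIMD4 (ENSSSCG00000017062, chromosome 16 from 66253604 to 66292961, plus strand) encodes a receptor for phosphatidylserine with which resident macrophages bind dying cells. Its levels were 52.7, 36.1 and 47.7 CPM in CON replicates 1, 2 and 3, against 18.0, 16.2 and 30.5 CPM in LPS replicates 1, 2 and 3. The highest LPS library was below the lowest CON library, and LPS replicate 3 was the nearest to the CON group. The group means were 45.5 ± 8.48 and 21.6 ± 7.80 CPM (SD, n = 3 each). The log2 fold change was −1.07 (standard error 0.34, 95% interval −1.84 to −0.30, adjusted p = 0.263, edgeR).

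VSIG4 (ENSSSCG00000035170, chromosome X from 52175605 to 52198621, minus strand) encodes the complement receptor CRIg, which captures C3b-coated particles from the blood. CON replicates 1 to 3 gave 25.3, 29.3 and 36.0 CPM, and LPS replicates 1 to 3 gave 11.3, 20.2 and 16.0 CPM. The groups did not overlap, with 20.2 CPM in LPS replicate 2 against 25.3 CPM in CON replicate 1 as the nearest values. Its means were 30.2 ± 5.40 and 15.8 ± 4.46 CPM (SD, n = 3 each), a log2 fold change of −0.93 (standard error 0.33, 95% interval −1.67 to −0.18, adjusted p = 0.306, edgeR).

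MARCO (ENSSSCG00000015716, chromosome 15 from 24503108 to 24541353, plus strand) encodes a class A scavenger receptor that binds bacteria and particles. Replicates 1 to 3 of the CON group gave 115.7, 69.5 and 221.1 CPM, those of the LPS group 177.2, 22.0 and 81.2 CPM. LPS replicate 1, the lowest library for 5 of the other 7 markers, was above 2 CON libraries here, and LPS replicate 2 was the lowest of all 6. The highest LPS library was 8.05 times the lowest, the widest spread of any marker in either group. The log2 fold change was −0.54 with an interval from −2.05 to 0.98 (adjusted p = 0.781, edgeR), and it depended on single libraries, being −1.37 without LPS replicate 1, −0.07 without LPS replicate 2 and 0.04 without CON replicate 3.

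Of the endocytic receptors, MRC1 (ENSSSCG00000011038, chromosome 10 from 44107072 to 44244410, plus strand) encodes the mannose receptor CD206, which takes up mannose-bearing glycoproteins and is carried in the liver by Kupffer cells and sinusoidal endothelial cells. Its levels were 49.5, 42.7 and 39.0 CPM in CON replicates 1, 2 and 3, against 12.0, 29.5 and 13.8 CPM in LPS replicates 1, 2 and 3. The CON libraries lay close together, LPS replicates 1 and 3 lay far below them, and LPS replicate 2 lay between. The means were 43.7 ± 5.33 and 18.4 ± 9.65 CPM (SD, n = 3 each). The log2 fold change was −1.25 (standard error 0.39, 95% interval −2.11 to −0.38, adjusted p = 0.252, edgeR), the lowest of the 8 markers, and 4.45% of tested genes had a lower one. MRC1 was the marker whose call changed with the processing: without LPS replicate 2 its log2 fold change was −1.75 (edgeR adjusted p = 0.0157), and without the filter on low counts it was −1.27 (edgeR adjusted p = 0.0365). Over 13 alternatives its adjusted p ranged from 0.0157 to 0.711. In these 2 settings calls rose over all genes, against 7 in the main fit. They were 982 (470 lower) without LPS replicate 2 and 885 (349 lower) without the filter. The span of MRC1 overlaps that of SLC39A12 on the same strand, which had 0 counts in all libraries.

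CD163 (ENSSSCG00000033146, chromosome 5 from 63300146 to 63334498, plus strand) encodes the receptor that clears haemoglobin bound to haptoglobin. CON replicates 1 to 3 gave 84.6, 78.5 and 137.9 CPM, and LPS replicates 1 to 3 gave 56.5, 117.8 and 80.8 CPM. LPS replicate 1 was the lowest library, LPS replicate 2 exceeded 2 CON libraries, and the groups overlapped. Its log2 fold change was −0.24 (95% interval −1.08 to 0.60, adjusted p = 0.827, edgeR), and it was 0.08 without CON replicate 3.

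**Figure D2:**
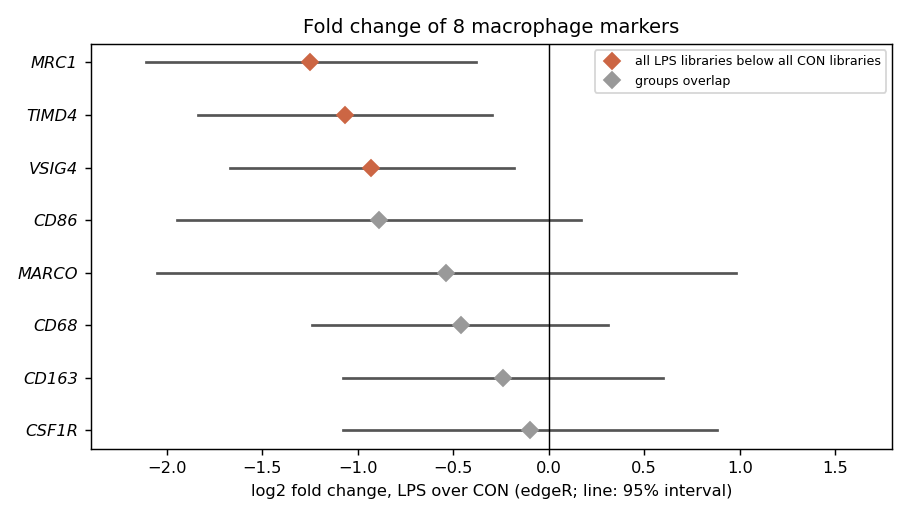
Log2 fold change of each marker, LPS over CON, from edgeR (diamonds) with its 95% interval (lines); the vertical line marks no difference. All 8 estimates lie below 0, from −1.25 for MRC1 to −0.10 for CSF1R, and the intervals of MRC1, TIMD4 and VSIG4 do not reach 0.

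Of the general macrophage genes, CSF1R (ENSSSCG00000014441, chromosome 2 from 151102138 to 151147634, minus strand) encodes the receptor for the growth factors CSF1 and IL34, on which macrophages depend. Replicates 1 to 3 of the CON group gave 109.0, 184.2 and 258.0 CPM, those of the LPS group 116.6, 269.5 and 126.8 CPM. The lowest library was a CON library and the highest an LPS library, and the groups overlapped. The log2 fold change was −0.10 (95% interval −1.08 to 0.88, adjusted p = 0.948, edgeR), the nearest to 0 of the 8 markers. Its sign turned without CON replicate 3 (0.24), without LPS replicate 1 (0.12) and without LPS replicate 3 (0.08), and it was −0.59 without LPS replicate 2.

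CD68 (ENSSSCG00000017956, chromosome 12 from 52874785 to 52877695, plus strand) encodes a glycoprotein of late endosomes and lysosomes. Its levels were 76.5, 60.9 and 68.8 CPM in CON replicates 1, 2 and 3, against 29.4, 56.3 and 63.5 CPM in LPS replicates 1, 2 and 3. LPS replicates 1 and 2 were below all CON libraries and LPS replicate 3 was not. This was a log2 fold change of −0.46 (95% interval −1.24 to 0.31, adjusted p = 0.622, edgeR).

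CD86 (ENSSSCG00000011877, chromosome 13 from 138427525 to 138504310, minus strand) encodes the B7-2 ligand that costimulates T cells through CD28 and is used as a mark of inflammatory macrophages. CON replicates 1 to 3 gave 18.2, 10.4 and 17.2 CPM, and LPS replicates 1 to 3 gave 3.48, 7.67 and 13.0 CPM. LPS replicates 1 and 2 were below all CON libraries, and LPS replicate 3 was above CON replicate 2. The 16 reads in LPS replicate 1 gave an exact Poisson interval of 1.99 to 5.65 CPM, which covers counting error only. Its log2 fold change was −0.89 (95% interval −1.95 to 0.17, adjusted p = 0.476, edgeR). It depended on single libraries, being −0.54 without LPS replicate 1 and −1.42 without LPS replicate 3 (edgeR adjusted p = 0.245), and it passed an unadjusted p of 0.05 in 3 of 13 alternatives, in none of which the adjusted p was below 0.05.

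CD86 and MRC1 were also set against each other in each library. They are only part of the study's evidence on macrophage states. Its RT-qPCR, scaled to GAPDH, found iNOS, CD86 and IL-12 higher and CD206 (MRC1) lower after LPS. The paper does not say whether those livers were the ones sequenced. Here the log2 fold change was −0.89 for CD86, opposite in sign to the RT-qPCR, and −1.25 for MRC1, neither called by edgeR. NOS2, which encodes iNOS, had means of 3.47 and 3.54 CPM in the CON and LPS groups. IL12A and IL12B had at most 2 and 3 counts in any library and did not pass the filter. The log2 CPM of CD86 less that of MRC1 was −1.43, −2.01 and −1.17 in CON replicates 1 to 3, against −1.72, −1.91 and −0.09 in LPS replicates 1 to 3. LPS replicates 1 and 2 lay inside the CON range and LPS replicate 3 lay above it. The means were −1.54 ± 0.43 and −1.24 ± 1.00 (SD, n = 3 each), a difference of 0.30 that was smaller than the spread between replicates (two-sided exact permutation p = 0.8), and it was −0.28 without LPS replicate 3. For 3 against 3 libraries the smallest p of this test is 0.1. MRC1, TIMD4 and VSIG4 reached this smallest exact permutation p of 0.1 in log2 CPM, which became 0.3 after Benjamini-Hochberg adjustment over the 9 values tested in this way.

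**Figure D3:**
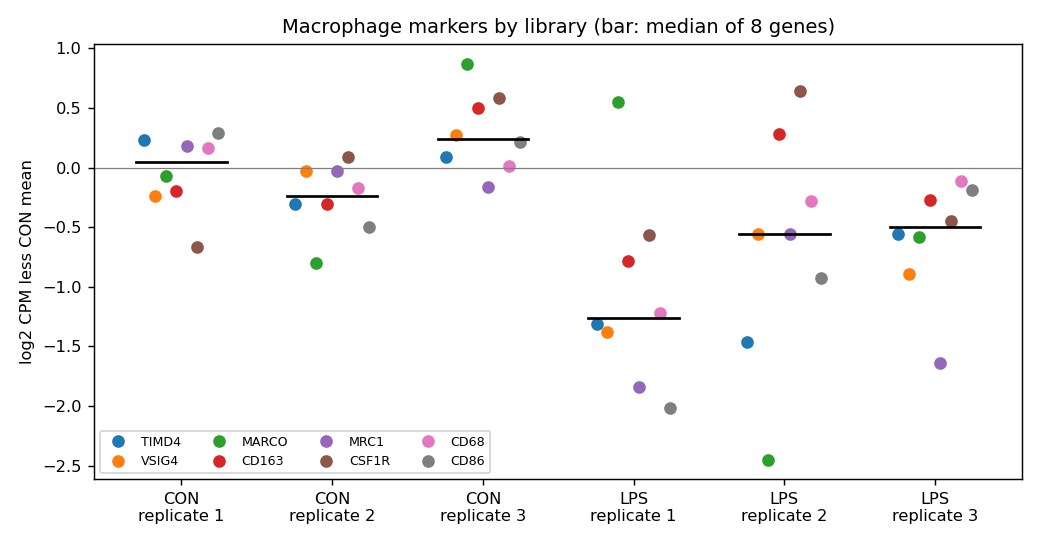
Log2 level of each marker relative to its CON mean (y axis) in each of the 6 libraries (x axis), 1 colour per marker, with the median of the 8 markers as a bar. In LPS replicate 1 and in LPS replicate 2, 6 of 8 markers lie below all CON libraries, against 3 of 8 in LPS replicate 3. The same share of all tested genes was not counted for single libraries. The lowest point is MARCO in LPS replicate 2 at −2.45.

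The 3 LPS libraries did not share a single order of markers. The median marker stood at −1.26 relative to its CON mean, on the log2 scale, in LPS replicate 1, at −0.56 in LPS replicate 2 and at −0.50 in LPS replicate 3. CD86 was the lowest marker in LPS replicate 1 (−2.02) and MARCO the highest (0.55). In LPS replicate 2 MARCO was the lowest (−2.45) and CSF1R the highest (0.64). In LPS replicate 3 MRC1 was the lowest (−1.64), and the highest, CD68, was at −0.11. The number of markers below all CON libraries was 6, 6 and 3 in LPS replicates 1, 2 and 3. CSF1R in LPS replicate 2 was the only marker value above all CON libraries. The share of all tested genes beyond the CON libraries was not counted for single LPS libraries, so these counts have no background to be read against.

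Levels between markers were compared per kilobase of annotated gene length. In the CON group the order was MARCO (62.3 ± 35.8 CPM per kb), CD68 (48.0 ± 5.43), CSF1R (37.5 ± 15.2), TIMD4 (37.0 ± 6.90), CD163 (13.1 ± 4.27), VSIG4 (10.6 ± 1.9), MRC1 (6.54 ± 0.798) and CD86 (2.37 ± 0.654). The ranges of MARCO, CD68, CSF1R and TIMD4 overlapped between neighbours, as did those of CD163 and VSIG4, whereas TIMD4 and CD163, VSIG4 and MRC1, and MRC1 and CD86 were separated in the 3 CON libraries. In the LPS group the order was MARCO (43.0 ± 36.0 CPM per kb), CSF1R (34.9 ± 17.5), CD68 (34.7 ± 12.6), TIMD4 (17.5 ± 6.34), CD163 (11.1 ± 4.04), VSIG4 (5.59 ± 1.57), MRC1 (2.76 ± 1.44) and CD86 (1.25 ± 0.742). In the LPS libraries the ranges of neighbours overlapped except between CD163 and VSIG4. CSF1R and CD68 exchanged places within their spread, and the other 6 markers kept their rank. These lengths depend on how much of each transcript is annotated, which is 1230 bases for TIMD4 and 7638 bases for CD163.

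Because CSF1R had nearly equal means in both groups, each of the other 7 markers was also given as its log2 CPM less that of CSF1R, a comparison chosen after the values were seen. MRC1 stood at −1.14, −2.10 and −2.72 in the CON libraries, against −3.26, −3.18 and −3.18 in the LPS libraries. VSIG4 stood at −2.10, −2.64 and −2.83 in the CON libraries, against −3.34, −3.72 and −2.97 in the LPS libraries. On this scale MRC1 (difference −1.22) and VSIG4 (difference −0.82) were lower in all LPS libraries than in all CON libraries, each at the smallest exact permutation p of 0.1 (0.35 after adjustment over 7 markers). TIMD4 differed by −0.98 with overlapping groups (exact permutation p = 0.4), and the differences of CD163, MARCO, CD68 and CD86 were −0.13, −0.70, −0.41 and −0.92 with overlapping groups.

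Other genes of macrophage biology were read from lists written from general knowledge. In the growth factor axis, CSF1, the main ligand of CSF1R, had 67.0 ± 2.72 CPM in the CON group and 131.9 ± 104.7 CPM in the LPS group (SD, n = 3 each), with LPS values of 105.9, 42.6 and 247.1 CPM. LPS replicates 1 and 3 exceeded all CON libraries and LPS replicate 2 was below them, and the log2 fold change was 0.98 (adjusted p = 0.492, edgeR). IL34, the other ligand, was low at 2.27 and 1.89 CPM. CSF2RB, the shared beta chain of the GM-CSF, IL-3 and IL-5 receptors, went from 31.2 ± 6.21 to 70.8 ± 43.4 CPM without overlap of the groups (log2 fold change 1.19, adjusted p = 0.314, edgeR).

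Of 11 tested macrophage transcription factors, 0 were called, 1 was higher and 0 lower at an unadjusted p below 0.05, and the median log2 fold change was 0.33. The higher gene was CEBPB, a factor of acute inflammatory transcription, with 246.4 ± 85.6 CPM in the CON group and 567.6 ± 294.3 CPM in the LPS group (adjusted p = 0.353, edgeR). SPI1, which encodes the myeloid factor PU.1, had a log2 fold change of 0.69 (adjusted p = 0.502, edgeR). NR1H3 and ID3, both linked to Kupffer cell identity, had 0.66 and 0.30, and SPIC, a factor of red pulp and iron-handling macrophages, had 0.61. In all, 8 of the 11 factors had a log2 fold change above 0 and 3 below, ID1 (−0.57), TFEC (−0.02) and IRF8 (−0.63), a factor of monocyte and dendritic cell development whose LPS libraries all lay below the CON libraries (adjusted p = 0.516, edgeR).

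Of 12 tested genes of the complement C1q and lysosome list, 11 had a log2 fold change below 0, with 0 called and 0 at an unadjusted p below 0.05 in edgeR, and the median was −0.40. The 3 chains of C1q, which resident macrophages make in large amounts, had log2 fold changes of −0.48 (C1QA), −0.26 (C1QB) and −0.48 (C1QC), with adjusted p from 0.612 to 0.823 in edgeR. The smallest p-values belonged to AIF1, a cytoskeletal protein of macrophages (−0.83, adjusted p = 0.440, edgeR), and to LAPTM5, a lysosomal protein of blood cells (−0.65, adjusted p = 0.489, edgeR). The row of LYZ held 0 counts in all libraries, and whether reads of this gene could be counted there was not tested.

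The scavenger and lectin receptors outside the marker list lay on both sides of 0, with a median of −0.34. Of 11 tested, 0 were called, 2 were lower and 1 was higher at an unadjusted p below 0.05. SIGLEC1, the sialoadhesin of tissue macrophages, gave 59.5, 54.1 and 102.2 CPM in the CON libraries, against 8.70, 40.0 and 17.1 CPM in the LPS libraries. LPS replicates 1 and 3 were far below the CON group and LPS replicate 2 nearer to it, the same order of LPS libraries as in MRC1, and the log2 fold change was −1.71 (adjusted p = 0.245, edgeR). MSR1, the class A scavenger receptor CD204, had means of 12.1 ± 3.06 and 4.64 ± 3.99 CPM without overlap (log2 fold change −1.38, adjusted p = 0.364, edgeR). LYVE1, a hyaluronan receptor of sinusoidal endothelium, lymphatics and some macrophages, lay the other way at 12.4 ± 3.40 and 27.5 ± 13.5 CPM without overlap (log2 fold change 1.16, adjusted p = 0.293, edgeR). STAB1, a scavenger receptor of macrophages and sinusoidal endothelium, had a log2 fold change of −0.44 (adjusted p = 0.789, edgeR).

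**Figure D4:**
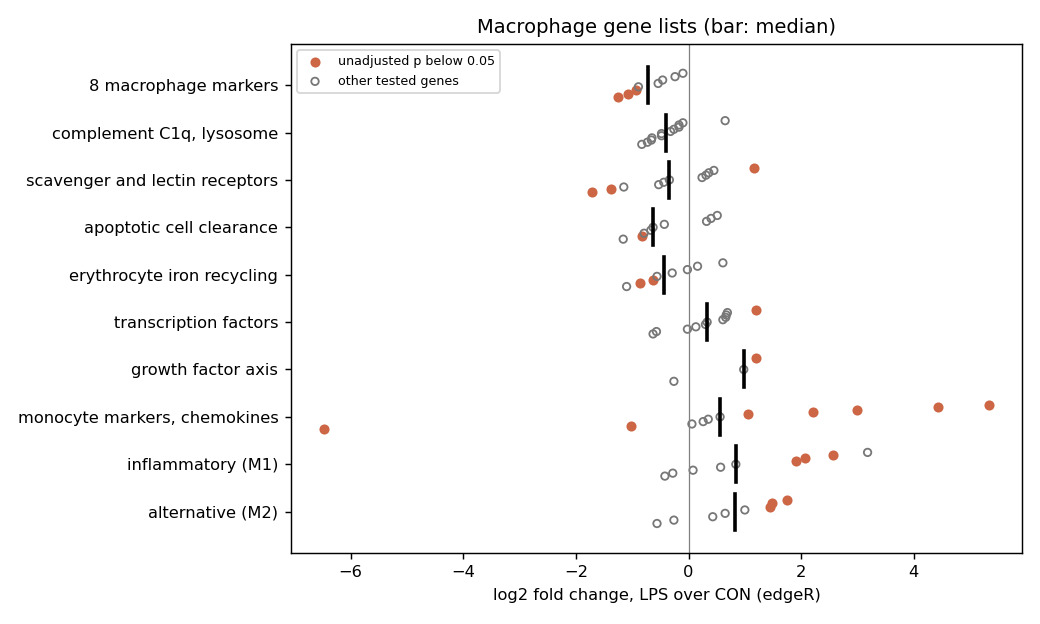
Log2 fold change, LPS over CON (edgeR), of every tested gene in each macrophage list (points), with the list median as a bar and genes at an unadjusted p below 0.05 in colour. The marker list has a median of −0.72 and the apoptotic cell clearance list one of −0.63, while the monocyte list and the lists of inflammatory and alternative activation have medians of 0.56, 0.84 and 0.82. The leftmost point, CCL8, rests on 1 count in the LPS libraries.

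Genes for the uptake of dying cells and for iron recycling had medians below 0. In the clearance list, 6 of 9 tested genes had a log2 fold change below 0, with 1 lower at an unadjusted p below 0.05 and 0 called by edgeR. That gene was MERTK, a receptor kinase for phosphatidylserine bridged by GAS6 or PROS1, at 17.5 ± 1.37 and 9.94 ± 2.30 CPM without overlap (log2 fold change −0.82, adjusted p = 0.350, edgeR). In the iron list, 6 of 8 tested genes had a log2 fold change below 0 and 2 were lower at an unadjusted p below 0.05, BLVRA and BLVRB, both biliverdin reductases. SLC40A1, the iron exporter ferroportin, had 17.4, 210.8 and 19.6 CPM in the LPS replicates against 176.4 ± 86.0 CPM in the CON group, so that LPS replicate 2 alone was at the CON level (adjusted p = 0.652, edgeR). HMOX1, the heme-degrading enzyme, had a log2 fold change of 0.16 (adjusted p = 0.906, edgeR).

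Monocyte genes had a median of 0.56 over 11 tested genes, of which 1 was called. The called gene was S100A8, a calcium-binding protein of monocytes and neutrophils that is also in the neutrophil list, which rose by 5.34 on the log2 scale (adjusted p = 0.0371, edgeR). CD14, the LPS co-receptor of monocytes and macrophages, had 717.2 ± 173.9 CPM in the CON group and 1491.8 ± 769.5 CPM in the LPS group with overlapping libraries (log2 fold change 1.06, adjusted p = 0.359, edgeR). ITGAM, the alpha chain of complement receptor 3, had a log2 fold change of 0.35. CCL8, a chemokine that draws monocytes, had 124 counts over the CON libraries and 1 count over the LPS libraries. After scaling to library size, the ratio of CON to LPS was 113 with a counting interval from 20.0 to 4512, and the adjusted p was 0.0636 in edgeR.

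Genes used as signs of inflammatory and of alternative macrophage activation both had medians above 0, 0.84 over 9 tested and 0.82 over 8 tested, with 0 called in either list. The LPS libraries differed in the inflammatory list: relative to the CON means its median stood at 0.69, −0.94 and 2.14 on the log2 scale in LPS replicates 1, 2 and 3, and its summed level in LPS replicate 2 (307.5 CPM) was below that of every CON library (538.6 to 876.3 CPM). In the alternative list the medians were 0.95, 0.32 and 1.18. In edgeR each list had 3 genes higher and 0 lower at an unadjusted p below 0.05. The smallest p-values of the inflammatory list in edgeR were those of CD40 (log2 fold change 2.06, adjusted p = 0.306) and CXCL10 (2.57, adjusted p = 0.326). CXCL10, an interferon-induced chemokine, had 541.7, 103.8 and 2932 CPM in LPS replicates 1, 2 and 3 against 201.1 ± 38.4 CPM in the CON group (SD, n = 3), and CD40 was likewise lowest in LPS replicate 2 and highest in LPS replicate 3, whereas NOS2, the inducible nitric oxide synthase, had means of 3.47 and 3.54 CPM. The smallest p-values of the alternative list in edgeR were those of TGM2 (log2 fold change 1.44, adjusted p = 0.200) and ARG1 (1.75, adjusted p = 0.218), and neither overlapped between groups. ARG1 is also the urea cycle arginase of hepatocytes. Among 6 tested costimulatory and inhibitory ligands outside the marker list, CD40 and CD274 were higher at an unadjusted p below 0.05 in edgeR, both with overlapping groups. CD274 had 9.57, 0.979 and 52.0 CPM in LPS replicates 1, 2 and 3 against 3.46 ± 2.02 CPM in the CON group (adjusted p = 0.368, edgeR). CD80, the partner of CD86 in binding CD28, had a log2 fold change of 0.57 (adjusted p = 0.686, edgeR).

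Markers of other liver and blood cells were read beside these values. Summed levels cover all listed genes with a row, those under the filter on low counts included. The 11 neutrophil genes with a row summed to between 34.9 and 68.6 CPM in the CON libraries and between 142.6 and 480.5 CPM in the LPS libraries. Of the 9 that were tested, 7 were higher at an unadjusted p below 0.05 and 2 were called, S100A8 and LCN2. Of 11 tested endothelial genes, which matter for MRC1, 4 were lower and 1 higher at an unadjusted p below 0.05, with a median of −0.48 and summed levels of 492.3 to 705.4 and 439.5 to 565.4 CPM. OIT3, a gene of sinusoidal endothelium, had the smallest p of that list (log2 fold change −1.39, adjusted p = 0.218, edgeR). The T and NK list (median −0.32, summed levels 178.0 to 239.6 and 105.3 to 215.6 CPM), the B and plasma cell list (−0.50, 34.4 to 127.3 and 24.8 to 52.5 CPM) and the dendritic list (−0.24, 54.5 to 74.8 and 93.2 to 584.9 CPM) had medians below 0, and none of these 3 had a called gene. The higher summed dendritic level lay mostly in 1 gene, BATF3, with means of 24.6 and 296.6 CPM (log2 fold change 3.59, adjusted p = 0.1, edgeR). CCR7 also had a higher LPS mean (2.28, adjusted p = 0.263, edgeR), but its groups overlapped. It had 11.7, 4.24 and 32.8 CPM in LPS replicates 1, 2 and 3 against 3.38 ± 2.12 CPM in the CON group. Of the 7 tested dendritic genes, 5 had a log2 fold change below 0. The hepatocyte list had a median of −0.11 over 14 tested genes. The cholangiocyte and stellate list had 0.22 over 12 and the red cell and platelet list 1.30 over 3. The part of these cells in the macrophage marker values was not tested.

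The genes nearest to a mean profile of 4 markers were sought over the 6 libraries. The measure was the root mean square difference, on the log2 scale, from the mean centred profile of TIMD4, VSIG4, MARCO and CD163, over 10752 genes with a symbol. The nearest genes were ERG28 (0.129), SLA-DMA (0.148), TRIM34 (0.158), E2F2 (0.165) and GLE1 (0.190). SLA-DMA encodes a chain of the molecule that loads peptide onto class II proteins and gave 26.8, 28.7 and 39.8 CPM in the CON libraries, against 17.8, 15.3 and 17.9 CPM in the LPS libraries. The other markers were among the genes compared, so their lying farther than the 5 nearest genes follows from the ranking itself. Their differences from the profile were 0.450 for CD68, 0.567 for CD86, 0.667 for MRC1 and 0.685 for CSF1R. All points share the same 6 libraries, and the 4 markers that make the profile differed among themselves, most of all in MARCO. The distances of these 4 markers from their own mean are not given. A gene near the mean is therefore not shown to be near any single marker.

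**Figure D5:**
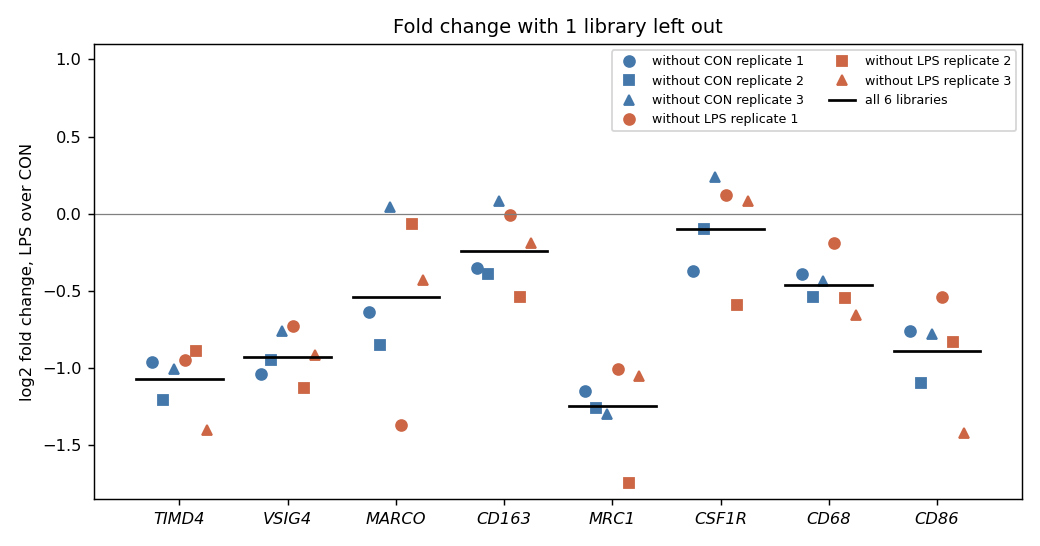
Log2 fold change of each marker (y axis) with all libraries (bars) and with each of the 6 libraries left out in turn (symbols), markers along the x axis. MRC1, TIMD4 and VSIG4 stay at or below −0.73 in every case, while MARCO spans −1.37 to 0.04 and CSF1R −0.59 to 0.24.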

How the data were processed

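The authors deposited raw read counts for 31908 pig Ensembl genes, with coordinates and lengths, in 1 table of 6 liver input libraries. The submitters' notes list cutadapt 1.9.3 and HISAT2, with the chicken build galGal6 and the human build hg38. For the pig build, the counting program and the use of strand, the sources used here give nothing. Of 13830 genes with a unique symbol, 98.9% (all 8 markers included) overlapped the gene of that symbol in Sscrofa11.1. CON replicates 1 and 2 have 2 sequencing entries each and 1 column each, and 0 sample columns were left unmapped. Symbols were found for 15029 identifiers.

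The fit used edgeR 4.0.16 under R 4.3.3 (filterByExpr with a minimum count of 10, TMM factors, robust quasi-likelihood fit, CON against LPS, no covariate). Counts simulated from this fit were tested afterwards, and their results are not given here. A gene was called where its fold exceeded 1.5 and its p, adjusted by Benjamini-Hochberg, was below 0.05. The paper's statistics state an unpaired test and nothing specific to these counts. CPM are TMM-scaled, and log2 CPM used a prior count of 2. Single values were compared with two-sided exact permutation tests over all 20 arrangements. The depth of 4348478 to 19967417 counts sets the counting error, which is largest in LPS replicate 1. Chi-square per gene was at least 32.7 between any 2 libraries, far above sampling noise.

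Alternatives were DESeq2 1.42.0 and limma-voom (limma 3.58.1) as tests, RLE factors or plain total counts as scaling, the low-count filter dropped or raised to 10 counts in each library, a replicate block, each library left out, no fold threshold and, for CD86 less MRC1, a prior count of 0.5. The markers, gene lists and the rule for named genes were chosen with earlier results of these data known. The rule names all markers, 20 set macrophage genes where they have a row, up to 2 genes with the smallest p per list, and the 5 genes nearest to the resident marker profile. Genes named outside it, after their values were seen, were CD80, IL12A, IL12B, ID1, IRF8, TFEC, LYZ, SLC39A12 and ALB.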

Additional observations from a re-analysis of the deposited data

How the results depend on the processing

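The count of called genes, 7 with all libraries in edgeR, was 12 with total counts, 885 without the filter on low counts, 0 with at least 10 counts in every library, 418 in DESeq2 and 51 with the replicate block, and it ranged from 0 to 982 when 1 library was left out (0 without any of the CON replicates, 1 without LPS replicate 1, 982 without LPS replicate 2, 58 without LPS replicate 3). The count of called markers was 0, except for 1, MRC1, without the filter, and a range of 0 to 1 when 1 library was left out, the 1 being MRC1 without LPS replicate 2. Same-numbered CON and LPS libraries correlated at −0.24, 0.22 and 0.03 in their deviations from the group means, so the numbers were not taken as pairs; the replicate block called 0 markers and gave 3 at an unadjusted p below 0.05, as the unpaired fit did. With 1 library left out, the log2 fold change ranged from −0.54 to 0.08 for CD163, from −1.37 to 0.04 for MARCO and from −0.59 to 0.24 for CSF1R, and the difference of CD86 less MRC1 from −0.28 to 0.64. The other 5 markers kept their sign in all 13 alternatives, with CD86 ranging from −1.42 to −0.54. Total counts moved the median of all tested genes to −0.12. The cause of these changes was not tested. Relative to the level, counting error among the markers was widest for CD86 in LPS replicate 1, at 3.48 CPM with an exact Poisson interval of 1.99 to 5.65 CPM. The biological coefficient of variation of the tested genes was 0.397.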
